A study of Homo sapiens with 12 samples.

Results

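The genes described here repair DNA or signal its damage. They come from a list of 41 symbols, and a gene counted as measured where a probe set carried its symbol alone on the array. That held for 36 of the 41, out of 18404 named genes in all. RAD51D was named only on a probe set shared with other symbols, and RBBP8, BRCA2, FANCA and FANCD2 had no probe set in the annotation used here, so these 5 were not analysed here. The 36 fall into 7 groups by role: 8 break sensors and checkpoint genes, 3 genes of end resection and unwinding, 9 of homologous recombination, 8 of the Fanconi anemia pathway, 2 of mismatch repair, 4 of non-homologous end joining and 2 of single-strand break repair.

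Affymetrix Human Gene 1.0 ST arrays, 12 in all, had read total RNA of A375 and of A2058, both established human melanoma lines. Each line was treated with DMSO or with vemurafenib, which makes 4 groups of 3 arrays. Vemurafenib is an inhibitor of mutant BRAF kinase, DMSO is its solvent, and the labels give BRAF (V600E) for every sample of both lines, so no group lacked the mutation. The treatment text gives 1 µM vemurafenib over 72 h with renewal each 24 h, or DMSO in the same volume. It stands on all samples but names only A375p, which is also the source name of the A375 samples. Nothing in the labels says whether replicates were separate cultures, so the p-values below measure the spread between these arrays, which may be technical.

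Double-strand breaks are bound by the MRE11-RAD50-NBN complex, which activates the kinase ATM, while the kinase ATR responds to single-stranded DNA at stalled forks. They signal through CHEK2 and CHEK1 to hold the cell cycle. A break is then either resected and copied from the sister chromatid by homologous recombination, a route used in S and G2 phase, or rejoined directly by non-homologous end joining, which does not need a sister. The Fanconi anemia pathway removes crosslinks between strands, mismatch repair corrects replication errors, and PARP1 and XRCC1 serve the repair of single-strand breaks. Many recombination and checkpoint genes are known to be transcribed mainly in proliferating cells.

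The measured values are log2 intensities deposited by the authors, from 3.24 to 13.08 over all probe sets, and none of the 36 genes had a mean under the 25th percentile of all genes (4.81). A level can be compared between arrays for 1 gene but not between genes. Replicates correlated at Pearson's r of 0.9978 to 0.9989 across genes, except A375 vemurafenib replicate 1, which reached only 0.9939 and 0.9941 with its 2 sister arrays. That array lay below the others of its group for many of the genes below, and it is named wherever leaving it out changes a call. The ERK phosphatase DUSP6 and the ERK pathway inhibitor SPRY4, read as a check of the treatment labels, fell in both lines, with log2 changes of -1.69 (A375) and -2.63 (A2058) for DUSP6 and -3.91 and -3.0 for SPRY4. The melanocyte regulators SOX10 and MITF were bright in both lines, while the pigment gene TYR averaged 4.57 in A375 with DMSO and 10.93 in A2058 with DMSO. The lineage markers PMEL and MLANA averaged 4.99 and 4.44 in A375 with DMSO, and 8.45 and 4.75 in A2058 with DMSO. With vemurafenib they averaged 5.07 and 4.54 in A375, and 10.88 and 7.08 in A2058. Of 12 markers of blood, endothelial, epithelial and fibroblast cells, 8 had a mean at or under the 26.8th percentile of all genes (the blood marker PTPRC at 3.8). The brightest was KRT18, an epithelial keratin at the 86.4th percentile, with means of 10.26 and 8.48 in A375 without and with vemurafenib and 8.87 and 7.46 in A2058. Of these 12 markers, the fibroblast marker LUM moved most with treatment, from a mean of 4.22 to 6.37 in A375 (2.15 ± 0.11). In A2058 LUM went from 6.88 to 6.47 (-0.41 ± 0.11). The part of these markers in the changes below was not tested. In RNA from a whole culture, fewer cells of a kind and less RNA per cell cannot be told apart.

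All comparisons are differences of group means on the log2 scale, given ± SE from 1 limma fit to the 12 arrays (n = 3 arrays per group). A gene was called where its p-value was under 0.05 after Benjamini-Hochberg adjustment across the 18404 genes. The words rose, fell, higher and lower are kept for called genes.

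The cell lines differed in most of these genes without vemurafenib. With DMSO, 26 of the 36 genes were lower in A375 than in A2058 (72.2%), while 22.5% of all genes were lower. Only XRCC1 and RAD50 were higher in A375, against 23.9% of all genes. The median difference, A375 minus A2058, was -0.355 for the 36 genes and -0.00663 for all genes, and 31 of the 36 values were negative. All 9 homologous recombination genes, all 3 resection and helicase genes and 6 of the 8 Fanconi genes were lower in A375, with medians of -0.713, -0.625 and -0.719. By contrast, the 8 sensors and checkpoint genes had a median of -0.0296, with 2 lower (CHEK1 and CHEK2) and 1 higher (RAD50). Cell cycle genes differed between the lines in the same arrays. On a list of 15 S phase and replication genes, written after these values were seen, 12 were lower in A375 with DMSO and 1 was higher (median -0.687), and of 15 mitosis genes all 15 were lower (median -0.629). The part of these cell cycle genes' difference in that of the repair genes was not tested. The pattern of the levels by array is shown in the heat map of the 36 genes.

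**Figure D1:**
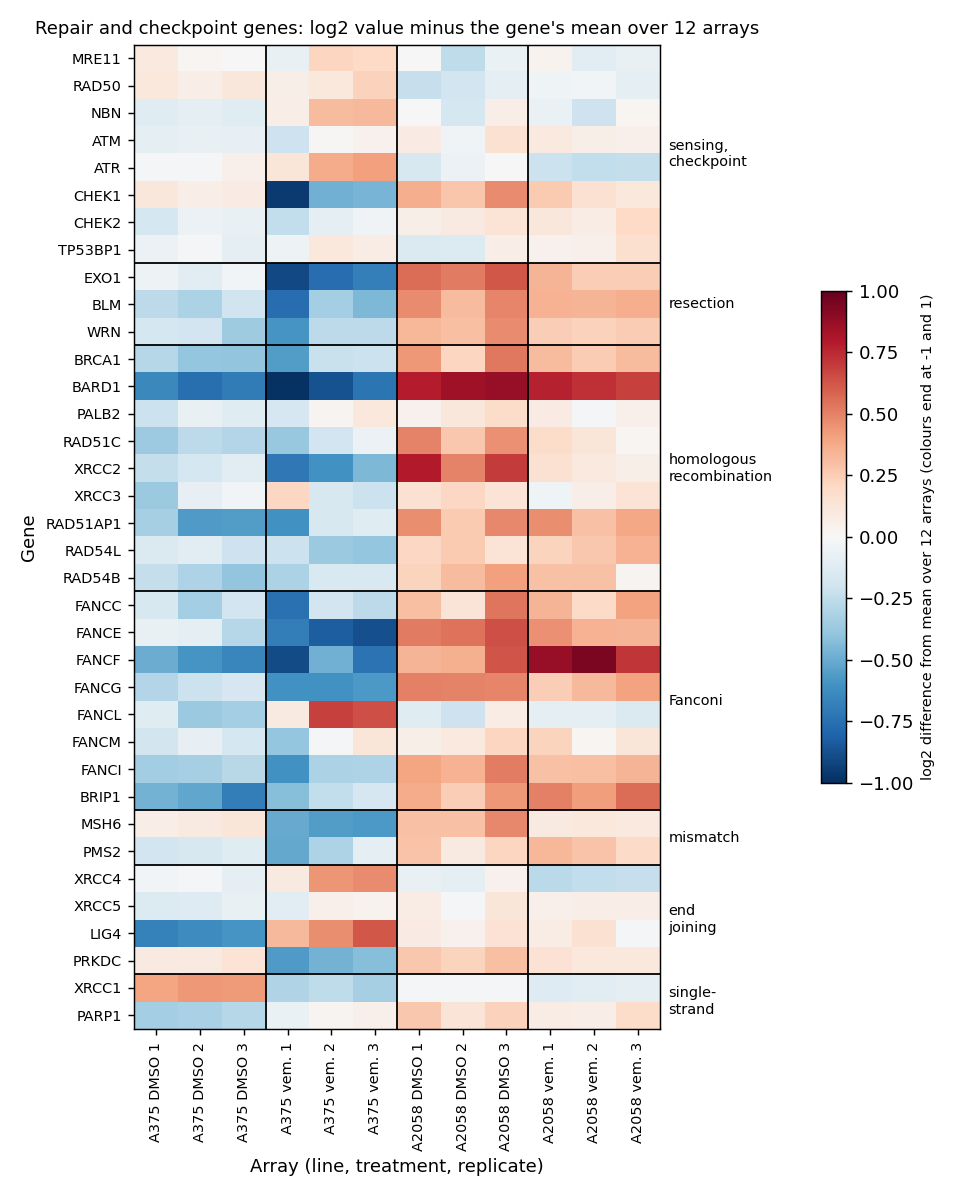
Log2 value of each of the 36 measured genes in each of the 12 arrays, minus that gene's mean over the 12 arrays, with genes in rows ordered by role and arrays in columns ordered by group; the colour scale ends at -1 and 1. The recombination and Fanconi rows are mostly below their mean in the 6 A375 arrays and above it in the 6 A2058 arrays, and LIG4 is highest in the 3 arrays of A375 with vemurafenib.

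Fewer of these genes changed with vemurafenib than differed between the lines. In A375, 7 of the 36 rose (19.4%, against 17.7% of all genes) and 10 fell (27.8%, against 19.3%). In A2058, 1 rose (2.78%, against 14.6%) and 7 fell (19.4%, against 12.5%). The shares called in A375 lie close to those of all genes, above all for the rises. The median change was 0.0265 in A375, where all genes had 0.00419, and -0.0838 in A2058, where all genes had 0.00635 and 26 of the 36 values were negative. Only LIG4 in A375 changed by 1 or more on the log2 scale, as 774 of the 18404 genes did in A375 and 365 in A2058. Leaving out single arrays moved several of these counts. Without A375 vemurafenib replicate 1 the A375 counts were 11 up and 9 down, and the A2058 counts, whose arrays share the fit's spread, were 2 up and 11 down. The A2058 counts were 0 up and 3 down without A2058 DMSO replicate 1, and 2 up and 4 down without A2058 DMSO replicate 3. A2058 rises numbered 0 without A2058 vemurafenib replicate 2, and falls numbered 4 without A2058 vemurafenib replicate 3.

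**Figure D2:**
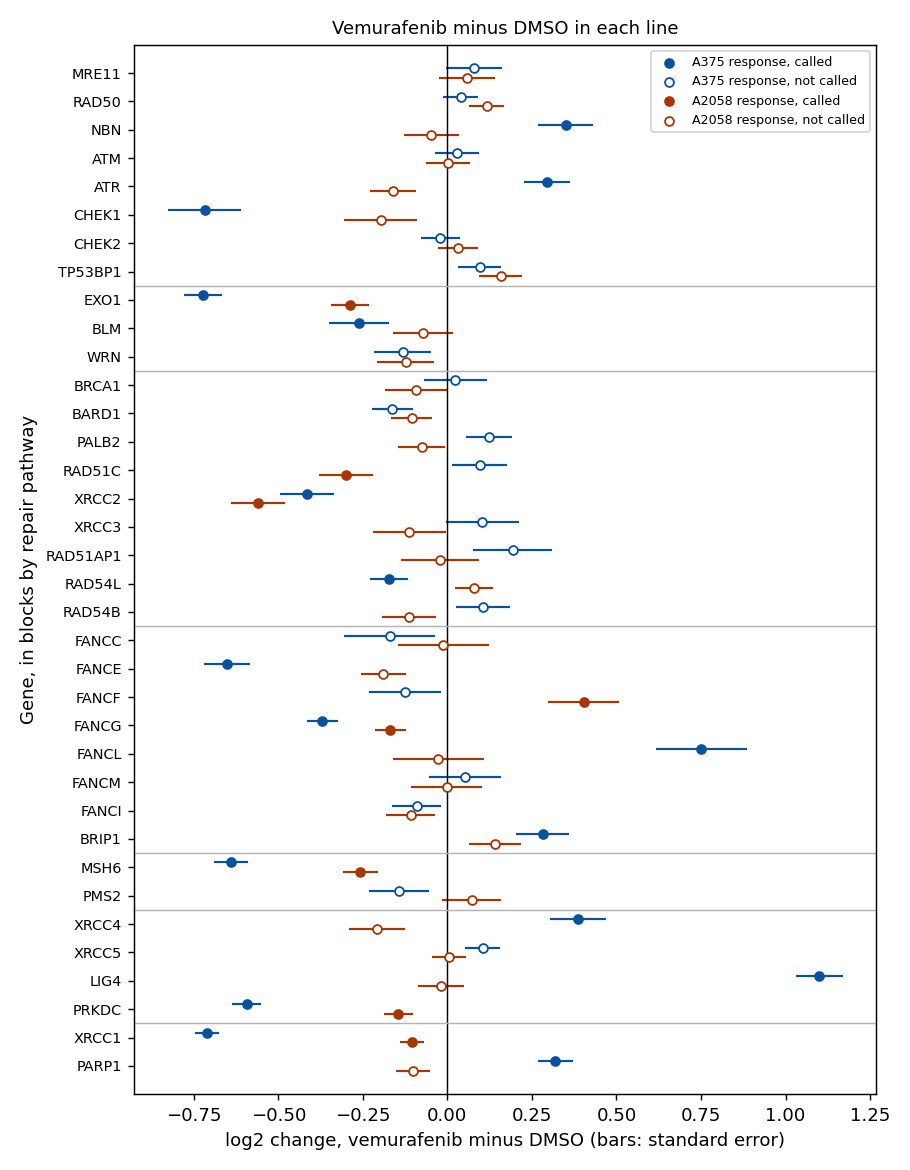
Log2 change with vemurafenib (vemurafenib minus DMSO) of each of the 36 genes in A375 and in A2058; points are differences of group means, bars are ± 1 SE of the limma fit with 3 arrays per group, and filled points are called at an adjusted p under 0.05. LIG4 in A375 stands furthest to the right at 1.10, and EXO1, CHEK1 and XRCC1 in A375 stand furthest to the left at -0.72, -0.72 and -0.71.

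Among the 8 break sensors and checkpoint genes, the effector kinase CHEK1 fell in A375 while the apical kinase ATR and the sensor NBN rose. Of all genes, 17.7% rose and 19.3% fell in A375. None of the 8 was called in A2058 under limma's test, where 14.6% of all genes rose and 12.5% fell. At an unadjusted p under 0.05, 2 of the 8 were up and 1 down there. CHEK1 read 8.33, 8.28 and 8.30 in the A375 DMSO arrays and 7.26, 7.74 and 7.76 in the vemurafenib arrays. Its A2058 arrays read 8.59, 8.49 and 8.69 with DMSO and 8.48, 8.37 and 8.33 with vemurafenib. The A375 groups did not overlap and lay 0.72 ± 0.11 apart, a fall to 0.608 of the DMSO level (adjusted p = 0.000143), with replicate 1 the lowest. In A2058 the change was -0.20 ± 0.11 (adjusted p = 0.241), though leaving out A375 vemurafenib replicate 1 brought it to an adjusted p of 0.0119. This change also passed when only the compared groups were fitted (0.038) and with array weights (0.0243). ATR, which acts upstream of CHEK1, read 7.26, 7.27 and 7.33 in A375 with DMSO and 7.41, 7.65 and 7.69 with vemurafenib. In A2058 its values were 7.12, 7.22 and 7.29 with DMSO and 7.07, 7.04 and 7.04 with vemurafenib. ATR rose in A375 by 0.30 ± 0.068 (adjusted p = 0.00363) and had a change of -0.16 ± 0.068 in A2058 (adjusted p = 0.114). Leaving out A375 vemurafenib replicate 1 brought the A2058 value to an adjusted p of 0.0138. That value also passed when only the compared groups were fitted (0.0371) and after a second quantile normalization (0.0344).

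NBN, the subunit that recruits ATM to breaks, rose in A375 by 0.35 ± 0.081 (adjusted p = 0.00384), and its A2058 change was -0.048 ± 0.081. Its partners MRE11 (0.078 ± 0.083 in A375 and 0.057 ± 0.083 in A2058) and RAD50 (0.040 ± 0.052 and 0.12 ± 0.052) were not called. ATM, the main kinase of double-strand breaks, read 8.10, 8.12 and 8.11 in A375 with DMSO and 7.98, 8.20 and 8.24 with vemurafenib. The A2058 arrays gave 8.27, 8.16 and 8.35 with DMSO and 8.29, 8.25 and 8.24 with vemurafenib. Its groups overlapped within each line and the changes were 0.029 ± 0.065 and 0.00086 ± 0.065. Between the lines with DMSO, every A375 array of ATM lay below every A2058 array, but the difference of -0.15 ± 0.065 was not called (adjusted p = 0.0853). It passed without A375 vemurafenib replicate 1 or A2058 DMSO replicate 2 (adjusted p 0.0156 to 0.0325). CHEK2, the effector kinase downstream of ATM, read 5.30, 5.42 and 5.41 and then 5.23, 5.39 and 5.44 in A375, and 5.54, 5.57 and 5.62 and then 5.59, 5.55 and 5.67 in A2058, each time DMSO first. Its changes with vemurafenib were -0.021 ± 0.058 and 0.032 ± 0.058.

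Between the lines with DMSO, CHEK1 (-0.29 ± 0.11, adjusted p = 0.0470) and CHEK2 (-0.20 ± 0.058, adjusted p = 0.0122) were lower in A375, and RAD50 was higher (0.27 ± 0.052, adjusted p = 0.000839). The CHEK1 call was lost without any 1 of the 3 A375 DMSO arrays, A2058 DMSO replicates 1 or 3, or any A2058 vemurafenib array (adjusted p 0.0549 to 0.155). That of CHEK2 was lost without A375 DMSO replicate 1 (adjusted p = 0.0622). MRE11 (0.14 ± 0.083) and NBN (-0.078 ± 0.081) were not called between the lines. TP53BP1, whose product steers breaks away from resection, was called in none of these comparisons, with changes of 0.10 ± 0.063 in A375 and 0.16 ± 0.063 in A2058. The A2058 value of TP53BP1 passed without A375 vemurafenib replicate 1 or A2058 DMSO replicate 3 (adjusted p 0.0122 to 0.0492).

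The resection and helicase group was led by EXO1, the exonuclease that extends resection at a break. It read 8.50, 8.44 and 8.52 in A375 with DMSO and 7.64, 7.78 and 7.86 with vemurafenib. The A2058 values were 9.10, 9.06 and 9.16 with DMSO and 8.88, 8.79 and 8.79 with vemurafenib. The 4 groups did not overlap and stood in the order A2058 DMSO, A2058 vemurafenib, A375 DMSO, A375 vemurafenib. EXO1 fell by 0.72 ± 0.056 in A375 (adjusted p = 3.52e-07) and by 0.29 ± 0.056 in A2058 (adjusted p = 0.00167), and with DMSO it was lower in A375 by 0.63 ± 0.056 (adjusted p = 9.11e-07). BLM and WRN, the helicases lost in Bloom and Werner syndromes, were also lower in A375 with DMSO, with differences of -0.68 ± 0.088 and -0.61 ± 0.084. BLM fell in A375 (-0.26 ± 0.088, adjusted p = 0.0332), a call lost without A375 DMSO replicates 1 or 3 or A375 vemurafenib replicate 1 (adjusted p 0.0727 to 0.113), and when only the compared groups were fitted (0.104). In A2058 the change of BLM was -0.072 ± 0.088, and WRN was called in neither line (-0.13 ± 0.084 and -0.12 ± 0.084).

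All 9 homologous recombination genes were lower in A375 with DMSO, and vemurafenib moved few of them. BARD1, the partner of BRCA1 in a ubiquitin ligase, had the largest line difference of the 36 genes with DMSO. It read 6.32, 6.21 and 6.27 in A375 and 7.75, 7.82 and 7.84 in A2058 with DMSO, and 5.98, 6.10 and 6.24 against 7.74, 7.70 and 7.65 with vemurafenib. The lines lay more than 1 log2 unit apart in every array, and the difference with DMSO was -1.53 ± 0.060 (adjusted p = 4.16e-10), 2.90-fold lower in A375. BARD1 was not called with vemurafenib in A375 (-0.16 ± 0.060, adjusted p = 0.0516) but passed without A375 vemurafenib replicate 3 (adjusted p = 0.00533). Its A2058 change was -0.11 ± 0.060. BRCA1, which promotes resection, read 6.99, 6.88 and 6.88 in A375 with DMSO and 6.71, 7.05 and 7.05 with vemurafenib. In A2058 BRCA1 read 7.70, 7.48 and 7.79 with DMSO and 7.59, 7.53 and 7.59 with vemurafenib. Its groups overlapped within each line, with changes of 0.023 ± 0.093 and -0.091 ± 0.093, and did not overlap between the lines, where A375 was lower with DMSO by 0.74 ± 0.093 (adjusted p = 1.95e-05).

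XRCC2 was the recombination gene that vemurafenib moved most, and it fell in both lines. Its A375 values were 7.60, 7.66 and 7.72 with DMSO and 7.12, 7.23 and 7.39 with vemurafenib. Its A2058 values were 8.63, 8.33 and 8.53 with DMSO and 7.99, 7.93 and 7.89 with vemurafenib. The groups did not overlap in either line. XRCC2 fell by 0.41 ± 0.079 in A375 (adjusted p = 0.000945) and by 0.56 ± 0.079 in A2058 (adjusted p = 0.000144), the largest change of the 36 genes in A2058. These falls were not shown to differ (difference 0.14 ± 0.11, 95% interval -0.10 to 0.39), and with DMSO XRCC2 was lower in A375 by 0.84 ± 0.079. RAD51C, which acts in strand exchange, read 7.37, 7.48 and 7.44 and then 7.36, 7.54 and 7.67 in A375, DMSO first. In A2058 it read 8.23, 8.0 and 8.19 with DMSO and 7.92, 7.86 and 7.76 with vemurafenib. RAD51C fell in A2058 (-0.30 ± 0.081, adjusted p = 0.0140) and was not called in A375 (0.10 ± 0.081). The A2058 call was lost without A2058 DMSO replicates 1 or 3 or A2058 vemurafenib replicate 3 (adjusted p 0.0536 to 0.0675).

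RAD51AP1, whose product stimulates strand pairing, read 6.37, 6.14 and 6.15 in A375 with DMSO and 6.10, 6.55 and 6.59 with vemurafenib. The A2058 arrays read 7.17, 6.97 and 7.19 with DMSO and 7.17, 7.0 and 7.10 with vemurafenib. Within A375, replicate 1 of the vemurafenib arrays was the lowest of the 6 and the other vemurafenib arrays were the highest. The A375 change of 0.19 ± 0.12 was not called (adjusted p = 0.244), but without that array it passed (adjusted p = 0.00378). With DMSO, RAD51AP1 was lower in A375 by 0.89 ± 0.12. The remaining recombination genes were lower in A375 with DMSO as well: the translocases RAD54L (-0.35 ± 0.056) and RAD54B (-0.63 ± 0.080), PALB2, a binding partner of BRCA1 (-0.25 ± 0.068), RAD51C (-0.71 ± 0.081) and XRCC3 (-0.33 ± 0.11). The XRCC3 call was lost without A375 DMSO replicate 1 or A2058 DMSO replicates 1 or 2 (adjusted p 0.0547 to 0.121). RAD54L fell in A375 (-0.17 ± 0.056, adjusted p = 0.0286), a call lost without A375 DMSO replicates 1 or 2 or A375 vemurafenib replicates 2 or 3 (adjusted p 0.0785 to 0.108), when only the compared groups were fitted (0.068) and with an intensity trend in the spread (0.0697). Its A2058 change was 0.079 ± 0.056. PALB2 (0.12 ± 0.068 and -0.076 ± 0.068), XRCC3 (0.10 ± 0.11 and -0.11 ± 0.11) and RAD54B (0.11 ± 0.080 and -0.11 ± 0.080) were called in neither line. Without A375 vemurafenib replicate 1 the A375 value of PALB2 passed (adjusted p = 0.0112). The A2058 change of RAD51AP1 was -0.021 ± 0.12.

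In the Fanconi pathway, the ubiquitin ligase subunit FANCL rose in A375, other core complex genes fell or were not called, and FANCF rose in A2058. FANCL read 7.13, 6.88 and 6.91 in A375 with DMSO and 7.34, 7.93 and 7.89 with vemurafenib. In A2058 FANCL read 7.12, 7.04 and 7.32 and then 7.16, 7.15 and 7.10. The A375 groups did not overlap, with vemurafenib replicate 1 nearest to DMSO, and FANCL rose by 0.75 ± 0.13 (1.68-fold, adjusted p = 0.000569). Its A2058 change was -0.027 ± 0.13. FANCE, a core subunit that contacts the substrate, read 7.18, 7.17 and 6.97 in A375 with DMSO and 6.56, 6.43 and 6.38 with vemurafenib. For A2058 the FANCE values were 7.78, 7.80 and 7.90 and then 7.71, 7.61 and 7.60. FANCE fell by 0.65 ± 0.067 in A375 (adjusted p = 5.13e-06) and was not called in A2058 (-0.19 ± 0.067, adjusted p = 0.0564). The A2058 value passed when A375 vemurafenib replicate 1 or A375 DMSO replicate 3 was left out (adjusted p 0.0259 to 0.0307). It also passed under 4 other settings (0.0199 to 0.0484).

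FANCF, an adaptor of the core complex, was the only one of the 36 genes that rose in A2058. It read 7.13, 7.15 and 7.42 with DMSO and 7.67, 7.74 and 7.51 with vemurafenib there, and 6.30, 6.21 and 6.15 and then 5.90, 6.32 and 6.05 in A375. The A2058 groups did not overlap and FANCF rose by 0.40 ± 0.11 (adjusted p = 0.0117), but the call was lost without A2058 DMSO replicate 1 or A2058 vemurafenib replicate 2 (adjusted p 0.0547 to 0.0564). Its A375 change was -0.13 ± 0.11, and with DMSO it was lower in A375 by 1.02 ± 0.11 (adjusted p = 3.35e-06). FANCG, a core scaffold, read 6.60, 6.68 and 6.72 in A375 with DMSO and 6.28, 6.28 and 6.32 with vemurafenib. The A2058 arrays of FANCG read 7.39, 7.39 and 7.38 and then 7.14, 7.22 and 7.29. FANCG fell in A375 (-0.37 ± 0.046, adjusted p = 2.89e-05) and in A2058 (-0.17 ± 0.046, adjusted p = 0.0156). The A2058 call was lost without A2058 DMSO replicate 1 or A2058 vemurafenib replicate 1 (adjusted p 0.0507 to 0.0778), and with an intensity trend in the spread (0.0514).

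BRIP1, the helicase that binds BRCA1, was counted with this pathway and had the third largest line difference. Its DMSO arrays read 6.93, 6.88 and 6.71 in A375 and 7.77, 7.66 and 7.84 in A2058, and its vemurafenib arrays 6.98, 7.16 and 7.24 and 7.91, 7.82 and 7.96. BRIP1 was lower in A375 by 0.91 ± 0.077 with DMSO (adjusted p = 5.46e-07). It rose in A375 (0.28 ± 0.077, adjusted p = 0.0112), a call lost without replicate 3 of either A375 group (adjusted p 0.0522 to 0.0579), and was not called in A2058 (0.14 ± 0.077). FANCI, which with its partner is the pathway's ubiquitinated target, FANCC, FANCE and FANCG were also lower in A375 with DMSO, at -0.74 ± 0.072, -0.55 ± 0.13, -0.72 ± 0.067 and -0.72 ± 0.046. FANCL (-0.19 ± 0.13, adjusted p = 0.295) and the translocase FANCM (-0.27 ± 0.11, adjusted p = 0.0540) were not called between the lines. Without A375 vemurafenib replicate 1 both passed (adjusted p 0.0484 for FANCL and 0.00235 for FANCM), and FANCM also passed without A375 vemurafenib replicate 3 (adjusted p 0.0237). FANCC (-0.17 ± 0.13 and -0.012 ± 0.13), FANCI (-0.091 ± 0.072 and -0.11 ± 0.072) and FANCM (0.052 ± 0.11 and -0.0014 ± 0.11) were called with vemurafenib in neither line. The A375 value of FANCM passed without A375 vemurafenib replicate 1 (adjusted p = 0.0341).

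Of the mismatch repair genes, MSH6 fell in both lines. MSH6, a subunit of the complex that recognises single mispairs, read 7.92, 7.95 and 7.98 in A375 with DMSO and 7.36, 7.30 and 7.28 with vemurafenib. The A2058 values of MSH6 were 8.15, 8.15 and 8.33 and then 7.94, 7.96 and 7.95. The groups did not overlap in either line, with falls of 0.64 ± 0.051 in A375 (adjusted p = 4.5e-07) and 0.26 ± 0.051 in A2058 (adjusted p = 0.00189), and A375 was lower with DMSO by 0.26 ± 0.051. PMS2, an endonuclease subunit, was called in neither line (-0.14 ± 0.087 and 0.072 ± 0.087) and was lower in A375 with DMSO (-0.36 ± 0.087, adjusted p = 0.00417). PMS2 has near-identical gene copies that share probes, so its values are uncertain. Leaving out A375 vemurafenib replicate 3 gave its A375 value an adjusted p of 0.0199.

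Of the 4 non-homologous end joining genes, LIG4 and XRCC4 rose and PRKDC fell in A375, and XRCC5 was not called. LIG4, the ligase that seals the break, had the largest change of the 36 genes. It read 7.21, 7.26 and 7.30 in A375 with DMSO and 8.21, 8.35 and 8.51 with vemurafenib, against 7.97, 7.93 and 8.03 and then 7.96, 8.04 and 7.88 in A2058. A375 arrays thus lay below all A2058 arrays with DMSO, and the 3 vemurafenib arrays of A375 were each brighter than the A2058 arrays of either group. LIG4 rose by 1.10 ± 0.068 in A375 (2.14-fold, adjusted p = 4.18e-08), and its A2058 change was -0.018 ± 0.068. XRCC4, the ligase's binding partner, read 7.10, 7.10 and 7.03 in A375 with DMSO and 7.22, 7.57 and 7.60 with vemurafenib. In A2058 XRCC4 read 7.05, 7.03 and 7.17 and then 6.85, 6.88 and 6.90. XRCC4 rose in A375 by 0.39 ± 0.083 (adjusted p = 0.00230) and had a change of -0.21 ± 0.083 in A2058 (adjusted p = 0.0899), which passed without A375 vemurafenib replicate 1 (adjusted p = 0.00194).

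PRKDC, the catalytic subunit of the DNA-dependent protein kinase, fell in A375 by 0.59 ± 0.043 (adjusted p = 1.84e-07), opposite to LIG4 and XRCC4. It fell by 0.15 ± 0.043 in A2058 (adjusted p = 0.0226), a call lost without A2058 DMSO replicates 1 or 3 or A2058 vemurafenib replicates 2 or 3 (adjusted p 0.0637 to 0.0863). XRCC5, a Ku subunit that binds the broken end, was called in neither line (0.10 ± 0.051 and 0.0051 ± 0.051), though the A375 value passed without A375 vemurafenib replicate 1 (adjusted p = 0.0135). With DMSO, LIG4 (-0.72 ± 0.068), XRCC5 (-0.17 ± 0.051) and PRKDC (-0.16 ± 0.043) were lower in A375, and XRCC4 was not called (-0.0069 ± 0.083). The XRCC5 call was lost without A375 DMSO replicate 1 or A2058 DMSO replicate 3 (adjusted p 0.0524 to 0.0658).

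The 2 single-strand break repair genes moved in opposite directions in A375. XRCC1, the scaffold of this route, read 9.63, 9.66 and 9.65 in A375 with DMSO and 8.93, 8.98 and 8.90 with vemurafenib. Its A2058 arrays all read 9.22 with DMSO and 9.10, 9.12 and 9.13 with vemurafenib. XRCC1 fell in A375 by 0.71 ± 0.035 (adjusted p = 4.75e-09), 1.64-fold. It fell in A2058 by 0.10 ± 0.035 (adjusted p = 0.0467), a call lost without any 1 array of A375 DMSO, A2058 DMSO or A2058 vemurafenib (adjusted p 0.063 to 0.143). PARP1, the enzyme that marks single-strand breaks and the target of PARP inhibitors, read 9.86, 9.88 and 9.92 in A375 with DMSO and 10.14, 10.23 and 10.25 with vemurafenib. In A2058 PARP1 read 10.47, 10.33 and 10.43 and then 10.28, 10.27 and 10.39. PARP1 rose in A375 by 0.32 ± 0.051 (1.25-fold, adjusted p = 0.000238) and had a change of -0.10 ± 0.051 in A2058 (adjusted p = 0.190). The A2058 value of PARP1 passed with array weights (adjusted p = 0.0153). With DMSO, XRCC1 was higher (0.43 ± 0.035) and PARP1 lower (-0.52 ± 0.051) in A375.

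**Figure D3:**
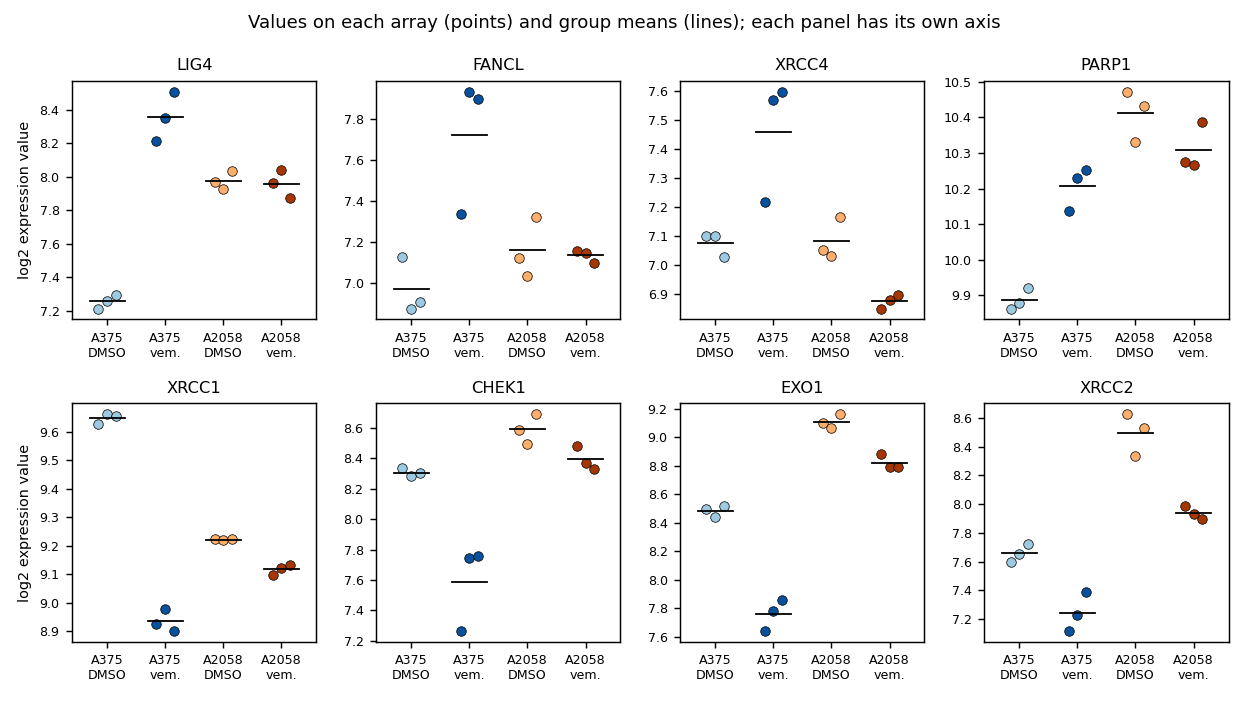
Log2 value in each array for LIG4, FANCL, XRCC4, PARP1, XRCC1, CHEK1, EXO1 and XRCC2, with 1 point per array, 3 arrays in each of the 4 groups, and a line at each group mean. LIG4 passes from a mean of 7.26 in A375 with DMSO to 8.36 with vemurafenib while both A2058 means are 7.98 and 7.96, and XRCC2 is lower with vemurafenib in both lines.

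Counted over both lines, 6 genes fell in A375 and in A2058: EXO1, XRCC2, FANCG, MSH6, PRKDC and XRCC1. They make up 16.7% of the 36, and 6.85% of all genes fell in both lines. The number was 3 without A2058 DMSO replicate 1 and 8 without A375 vemurafenib replicate 1. No gene of the 36 rose in both lines under limma's test (0 at an unadjusted p under 0.05 as well), where 6.52% of all genes did. None rose in A375 and fell in A2058, against 1.8% of all genes, although ATR and XRCC4 met this at an unadjusted p under 0.05 and the count was 2 without A375 vemurafenib replicate 1. None fell in A375 and rose in A2058 (0 at an unadjusted p under 0.05), against 2.61% of all genes. A further 17 genes were called in neither line, and the share of all genes called in neither was not counted. By line, 19 of the 36 were not called in A375 and 28 in A2058. Of the 18404 genes, 11588 and 13413 were not called. Across the 36 genes, the changes in the lines, which have separate controls, correlated at Pearson's r = 0.332 and Spearman's rho = 0.308, and across all genes at 0.369 and 0.294. These correlations are across genes, which are not independent replicates.

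Promoters are shown for 5 of the 6 genes that fell in both lines, chosen by that call alone. Beside them stand those of LIG4 (largest rise), FANCF (the A2058 rise) and FANCC (which holds an E2F motif). The sequences are RefSeq's, of build GRCh38.p14, and each gives the 120 bases before the first listed transcription start, 5′ to 3′ on the gene's strand. Capitals mark a searched motif, and a sequence with none holds none of them in these bases.
EXO1: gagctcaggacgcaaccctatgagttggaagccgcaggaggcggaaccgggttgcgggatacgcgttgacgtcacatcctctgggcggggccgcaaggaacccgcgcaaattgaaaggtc
XRCC2: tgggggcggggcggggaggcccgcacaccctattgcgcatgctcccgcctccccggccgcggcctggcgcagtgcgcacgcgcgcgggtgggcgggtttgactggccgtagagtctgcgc
FANCG: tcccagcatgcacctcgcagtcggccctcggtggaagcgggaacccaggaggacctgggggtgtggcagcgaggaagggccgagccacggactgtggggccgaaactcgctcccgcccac
MSH6: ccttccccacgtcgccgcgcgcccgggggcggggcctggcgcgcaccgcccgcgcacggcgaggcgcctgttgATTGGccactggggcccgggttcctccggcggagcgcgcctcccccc
XRCC1: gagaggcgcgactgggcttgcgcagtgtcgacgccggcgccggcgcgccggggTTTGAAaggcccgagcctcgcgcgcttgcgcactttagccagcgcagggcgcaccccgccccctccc
LIG4: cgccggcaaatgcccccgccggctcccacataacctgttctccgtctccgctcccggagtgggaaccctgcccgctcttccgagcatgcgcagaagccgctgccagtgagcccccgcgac
FANCF: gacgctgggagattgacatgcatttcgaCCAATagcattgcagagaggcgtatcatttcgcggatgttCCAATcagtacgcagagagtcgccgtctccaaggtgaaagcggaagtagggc
FANCC: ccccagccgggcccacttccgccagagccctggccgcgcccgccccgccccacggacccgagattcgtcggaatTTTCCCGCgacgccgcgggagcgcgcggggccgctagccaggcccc

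They lie at chr1:241848084-241848203 (EXO1, plus strand), chr7:152676142-152676261 (XRCC2, minus strand), chr9:35079943-35080062 (FANCG, minus strand), chr2:47783025-47783144 (MSH6, plus strand); chr19:43575528-43575647 (XRCC1, minus strand), chr13:108218350-108218469 (LIG4, minus strand), chr11:22625824-22625943 (FANCF, minus strand) and chr9:95317710-95317829 (FANCC, minus strand). PRKDC has no entry in the promoter table.

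Motifs tied to cell cycle transcription in textbooks were searched on both strands over the 250 bases before each start. They were the E2F motif (TTTCCCGC, TTTCGCGC, TTTGCCGC or TTTGGCGC), the cell cycle homology region, CHR (TTTGAA or TTCGAA), and CCAAT. In the table, 30 of the 36 genes had entries, with 46 starts; NBN, WRN, RAD54B, FANCI, XRCC5 and PRKDC had none. A gene counted where any of its starts held the motif. E2F letters stood in 2 of the 30 genes, FANCC and PMS2 (6.67%), and in 3.4% of the 27305 genes of the table (2.79% of its 35116 promoters). CHR letters stood in 4, ATM, BRIP1, FANCC and XRCC1 (13.3%), against 17.2% of genes (14.3% of promoters). CCAAT stood in 18 of the 30 (60%), against 37% of genes (32% of promoters). Of the 9 matched genes that fell in A375, 5 held CCAAT and 0 the E2F letters, and of the 6 that rose, 2 and 0 did. Of the 15 not called there, 11 held CCAAT and 2 the E2F letters. In the sequences shown, CCAAT lay 92 and 52 bases before the start of FANCF, and on the opposite strand 47 bases before that of MSH6. The CHR of XRCC1 began 67 bases and the E2F motif of FANCC 46 bases before the start. The median GC content of the members' promoters was 64.6%, and that of all promoters 58%. A match describes letters and is no sign that a factor binds there.

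Whether the lines responded differently was tested as the A375 change minus the A2058 change. That difference was positive and called for 7 of the 36 genes (13.1% of all genes) and negative and called for 9 (16.4%). On the positive side stood LIG4 (1.12 ± 0.097, adjusted p = 1.85e-06), FANCL (0.78 ± 0.19, adjusted p = 0.00721), XRCC4 (0.59 ± 0.12, adjusted p = 0.00177), ATR (0.45 ± 0.096), PARP1 (0.42 ± 0.072), NBN (0.40 ± 0.11) and RAD51C (0.39 ± 0.11). The first 6 of these rose in A375 and were not called in A2058, while RAD51C fell in A2058 and was not called in A375. On the negative side stood XRCC1 (-0.61 ± 0.050, adjusted p = 1.2e-06), FANCF (-0.53 ± 0.15, adjusted p = 0.0167), CHEK1 (-0.52 ± 0.15, adjusted p = 0.0206), FANCE (-0.46 ± 0.095), PRKDC (-0.45 ± 0.061), EXO1 (-0.44 ± 0.079), MSH6 (-0.38 ± 0.072), RAD54L (-0.25 ± 0.080) and FANCG (-0.20 ± 0.065). XRCC1, PRKDC, EXO1, MSH6 and FANCG thus fell in both lines and by more in A375. Several of these calls rest on single arrays. CHEK1 was lost without A2058 DMSO replicate 2 or A2058 vemurafenib replicate 1 (adjusted p 0.0524 to 0.0544), NBN without A2058 DMSO replicate 3 or A2058 vemurafenib replicate 2 (0.051 to 0.0516), and RAD51C without A375 DMSO replicate 1, A2058 DMSO replicate 1 or A2058 vemurafenib replicate 3 (0.0511 to 0.0539). FANCG was lost without any A2058 DMSO array, A375 DMSO replicates 2 or 3, A375 vemurafenib replicate 2 or A2058 vemurafenib replicates 2 or 3 (0.0599 to 0.0901), and also after a second quantile normalization (0.0615) or with an intensity trend in the spread (0.0968). RAD54L was lost without A375 DMSO replicates 1 or 2, A375 vemurafenib replicates 2 or 3, A2058 DMSO replicates 1 or 3 or A2058 vemurafenib replicates 2 or 3 (0.053 to 0.0788), and with the intensity trend (0.0729). Calls were gained for PALB2 (adjusted p = 0.0117) and RAD51AP1 (0.019) without A375 vemurafenib replicate 1, and for PMS2 (0.0296) without A375 vemurafenib replicate 3.

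The same changes seen as differences between the lines show which gaps widened or turned. With vemurafenib, 22 of the 36 genes were lower in A375 (61.1%, against 24.2% of all genes) and 6 were higher (16.7%, against 22.7%), with a median difference of -0.492 for the 36 and -0.00775 for all genes. This comparison shares its arrays with the responses above. Lower in A375 with DMSO and with vemurafenib were 21 genes, against 16.3% of all genes, among them every measured resection gene and 7 of the 9 recombination genes. RAD50 alone was higher in both conditions, against 15.5% of all genes. LIG4 turned from -0.72 ± 0.068 with DMSO to 0.40 ± 0.068 with vemurafenib (adjusted p = 0.00029), and XRCC1 from 0.43 ± 0.035 to -0.18 ± 0.035 (adjusted p = 0.000829). PARP1 went from -0.52 ± 0.051 to -0.10 ± 0.051 (adjusted p = 0.129). PALB2, XRCC3 and XRCC5 were lower in A375 with DMSO and not called with vemurafenib. Their difference of responses was not called in limma's test (adjusted p = 0.162, 0.372 and 0.388), so a closing gap was not shown for them. ATR (0.53 ± 0.068), FANCL (0.59 ± 0.13), NBN (0.32 ± 0.081) and XRCC4 (0.59 ± 0.083) were higher in A375 with vemurafenib and not called with DMSO. The gap widened for EXO1, to -1.06 ± 0.056, for FANCE, to -1.18 ± 0.067, and for FANCF, to -1.55 ± 0.11. Among genes with a called difference of responses, it also widened for CHEK1 (-0.29 to -0.81), PRKDC (-0.16 to -0.61) and MSH6 (-0.26 to -0.64). The same held for RAD54L (-0.35 to -0.60) and FANCG (-0.72 to -0.92), while the gap of RAD51C narrowed (-0.71 to -0.32). BARD1 kept the largest difference (-1.59 ± 0.060). Leaving out A375 vemurafenib replicate 1 added XRCC3 (adjusted p = 0.0304) and MRE11 (adjusted p = 0.00721) to the calls, and leaving out A375 vemurafenib replicate 3 added FANCM (adjusted p = 0.0166).

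**Figure D4:**
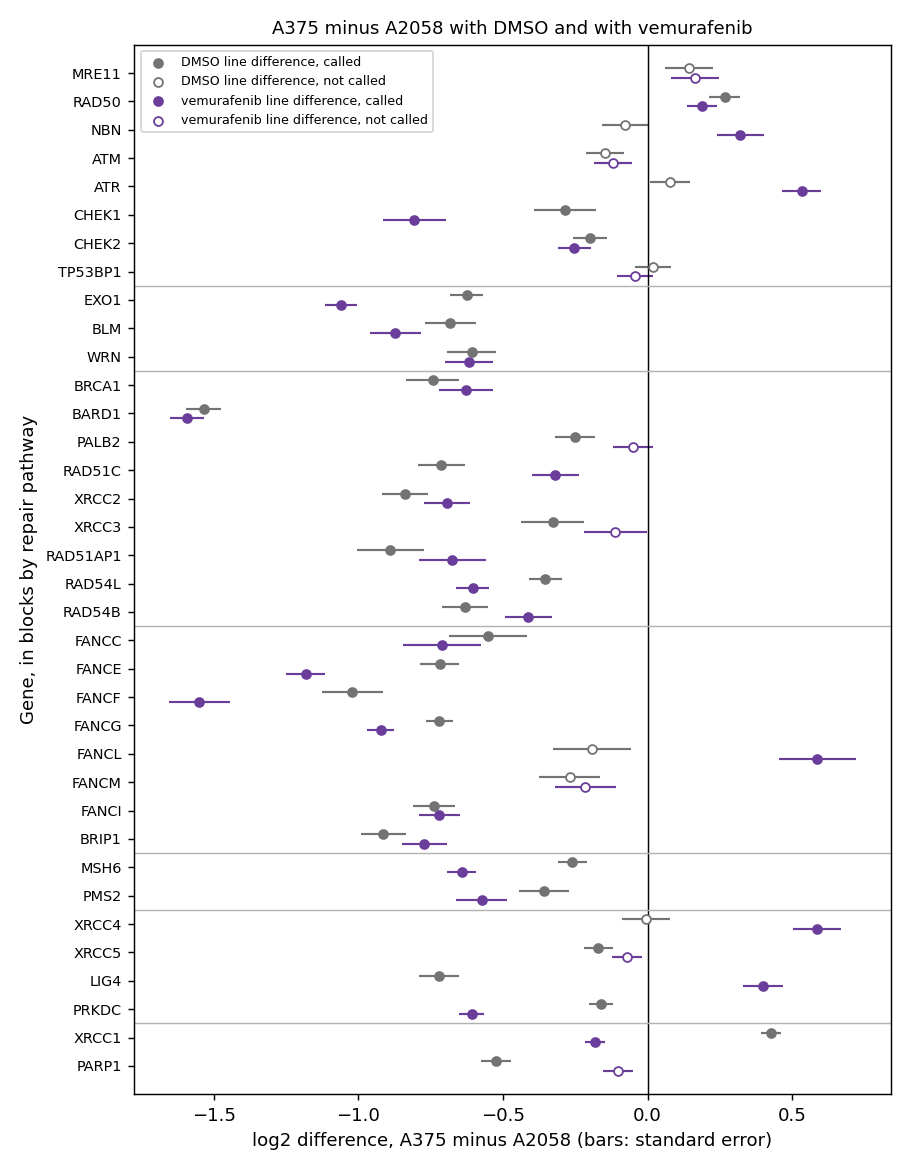
Difference between the cell lines (A375 minus A2058, log2) for each of the 36 genes with DMSO and with vemurafenib; points are differences of group means, bars are ± 1 SE of the limma fit with 3 arrays per group, and filled points are called. Most points lie left of 0 in both conditions, BARD1 furthest at -1.53 and -1.59, and LIG4 and XRCC1 change side.

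Other genes of these pathways, from lists holding 164 distinct genes of which 148 were measured, were called in both directions. With vemurafenib 25 rose and 45 fell in A375 (median -0.0485), and 20 rose and 25 fell in A2058 (median -0.0302). Of all genes, 17.7% rose and 19.3% fell in A375, and 14.6% rose and 12.5% fell in A2058. With DMSO, 33 were higher and 71 lower in A375 (median -0.121), against 23.9% and 22.5% of all genes. The counts of each list below stand against these same shares, and no list was tested as a set. Checkpoint and damage signalling genes had 7 rises and 9 falls among 28 in A375, including falls of the mitosis-delaying kinase WEE1 (-0.97 ± 0.063) and of RIF1, an effector of TP53BP1 (-0.64 ± 0.084). In A2058 they had 4 rises and 3 falls, with CDC25A, a phosphatase that drives S phase entry, at -0.61 ± 0.062 and BRCC3, a deubiquitinase of the BRCA1-A complex, at -0.43 ± 0.069. Further recombination and resection genes had 3 rises and 6 falls among 28 in A375 and 2 and 6 in A2058. In A375 the junction nuclease GEN1 rose (0.79 ± 0.076) and the resection nuclease DNA2 fell (-0.64 ± 0.058), and in A2058 RMI1, of the BLM complex (-0.35 ± 0.096), and PSMC3IP (-0.34 ± 0.061) fell.

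Crosslink repair genes beyond the 8 had 4 rises and 3 falls among 17 in A375 and 1 and 4 in A2058. ERCC1, a nuclease subunit of crosslink and nucleotide excision repair, fell in both lines (-1.12 ± 0.040 and -0.61 ± 0.040), WDR48, a cofactor of the pathway's deubiquitinase, fell in A375 (-0.50 ± 0.067), and FANCB, a core subunit, fell in A2058 (-0.74 ± 0.11). Of 10 further end joining genes, 1 rose and 4 fell in A375, among them the polymerase POLL (-0.71 ± 0.060) and LIG3 (-0.33 ± 0.051). In A2058 3 rose, with the nuclease DCLRE1C at 0.40 ± 0.054, and 1, CYREN, fell (-0.20 ± 0.060). Of 4 further mismatch repair genes, MSH3 (-0.45 ± 0.042) and PMS1 (-0.18 ± 0.062) fell in A375, and under limma's test 0 were called in A2058 (1 at an unadjusted p under 0.05, downward). Base excision and single-strand break repair had 3 rises and 8 falls among 22 in A375, with PARP3 (-0.62 ± 0.060) and the glycosylase UNG (-0.45 ± 0.056) falling, and 2 and 5 in A2058, where polymerase beta, POLB, rose (0.79 ± 0.091) and the glycosylase NTHL1 fell (-0.37 ± 0.071). Nucleotide excision repair had 3 rises and 8 falls among 20 in A375 and 2 and 3 in A2058. Beside ERCC1, the kinase CDK7 (-0.54 ± 0.088, A375) and its partner MNAT1 (-0.54 ± 0.10, A2058) fell. Its line difference with DMSO ran the other way from the 36 genes, with 10 of 20 higher and 6 lower in A375 (median 0.172).

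Translesion synthesis and direct reversal genes had 5 rises and 6 falls among 21 in A375 and 5 and 1 in A2058. The bypass polymerase POLK rose in both lines (1.15 ± 0.086 and 0.39 ± 0.086), SPRTN, a protease of DNA-protein crosslinks, rose in A375 (0.64 ± 0.065) and the ubiquitin ligase SHPRH rose in A2058 (0.46 ± 0.058). Of 7 genes of nucleotide supply, RRM2B, the reductase subunit of damaged and resting cells, rose in A375 (0.54 ± 0.071), and RRM2, its S phase counterpart, fell in A375 (-0.40 ± 0.083) and A2058 (-0.67 ± 0.083), where TYMS fell too (-0.25 ± 0.073). Beside these responses, 13 of the 15 S phase genes fell and 1 rose in A375 (median -0.488), while 13 of the 15 mitosis genes rose and 0 fell (median 0.362). In A2058, 8 S phase genes fell and 0 rose, and mitosis genes had 2 rises and 2 falls. Both counts of 0 come from limma's test and were also 0 at an unadjusted p under 0.05. The part of these changes in those of the repair genes was not tested. The counts over related and cell cycle genes were not recomputed under other settings.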

How the data were processed

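The deposited values are log2 intensities, with a single number for each of 32321 probe sets on each array. The authors made them with R 3.0.1 and affy, per the submitters' processing notes; the background correction, summary method and build were not given in the sources used here. The log2 scale was read from the values, whose medians of 5.19 to 5.30 nearly coincide, so they were not scaled again. Such scaling removes a change shared by all genes, and dim values understate change. No depth exists for arrays; their number limits the precision.

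Probe sets with 1 symbol (19158) were kept and symbols updated through RefSeq; of several per gene, the one with the highest mean stayed, leaving 18404 genes. All 12 arrays, grouped by title, entered 1 fit of 4 group means in limma 3.58.1 (R 4.3.3) with 5 two-sided contrasts. The steps were tested on simulated data.

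Every measured gene is given with its change in both lines. Values of every array are given for the 6 called genes with the largest change in each of both responses, their difference and the DMSO line difference, and for BRCA1, ATM, ATR, CHEK1, CHEK2 and PARP1. Related lists name up to 2 called genes per list and line. The genes, lists and alternatives were chosen with earlier results of these data known.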

Additional observations from a re-analysis of the deposited data

Results flagged for a closer look

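For 16 of the 36 genes the response to vemurafenib differed between the cell lines in limma's test of that difference (A375 change minus A2058 change, log2, adjusted p under 0.05). The difference was positive and called for 19.4% of the 36 and 13.1% of all genes, and negative and called for 25% and 16.4%. The A375 change was the more positive for LIG4 (1.12), FANCL (0.78), XRCC4 (0.59), ATR (0.45), PARP1 (0.42), NBN (0.40) and RAD51C (0.39). It was the more negative for XRCC1 (-0.61), FANCF (-0.53), CHEK1 (-0.52), FANCE (-0.46), PRKDC (-0.45), EXO1 (-0.44), MSH6 (-0.38), RAD54L (-0.25) and FANCG (-0.20). With 3 arrays in each group, no test for a single outlying array was made.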

How the results depend on the processing

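Each gene's change was recomputed under 7 other settings and with each of the 12 arrays left out. Of 3384 values, 3248 stayed on the same side of the threshold, 79 lost and 57 gained a call. Many of these fits kept the log2 change as it was and could alter only its SE and adjusted p. These were the replicate number as a block, fitting only the compared groups, averaging probe sets, leaving out dim genes and an intensity trend. Each gene had 1 probe set with its symbol alone, so averaging tested nothing about these genes. Leaving out an array outside a comparison also kept its change. Among values called in either fit, 0 reversed their sign, which only the other fits could have shown. Some uncalled values did change sign, such as FANCC in A2058 (-0.107 to 0.0943 over these fits). Over the left-out arrays, the counts of called genes ran from 6 to 11 (A375 up), 8 to 11 (A375 down), 0 to 2 (A2058 up), 3 to 11 (A2058 down), 6 to 9 and 7 to 9 (difference of responses, up and down), 22 to 29 (lower in A375 with DMSO), 6 to 7 and 22 to 23 (higher and lower in A375 with vemurafenib), 3 to 8 (down in both lines) and 0 to 2 (up in A375 and down in A2058). The last count, 0 as reported, was 2 when only the compared groups were fitted, 2 after a second quantile normalization and 2 with array weights. With array weights A2058 had 3 up and 11 down, with calls gained for RAD50, TP53BP1, CHEK1, FANCE, XRCC4 and PARP1. Other settings also gave calls to BARD1, PALB2, RAD51AP1 and XRCC5 in A375 (adjusted p 0.00529 to 0.0497). Between the lines, ATM and FANCM passed with DMSO (0.00171 to 0.0464), and MRE11, PARP1 and XRCC5 with vemurafenib (0.00674 to 0.0129). The difference of responses gained PALB2, RAD51AP1 and XRCC5 (0.0215 to 0.0354). A375 vemurafenib replicate 1 had the lowest array weight (0.149); without it, 29 genes were lower in A375 with DMSO. The replicate number as a block left A375 at 7 up and 10 down, and ended the calls of XRCC1 in A2058 (adjusted p = 0.0722) and CHEK1 between the lines (adjusted p = 0.067); no label says that a number marks a shared batch, same-numbered arrays did not deviate together (correlations -0.294 to 0.1), and no other call was lost under the block. The call of XRCC1 in A2058 was also lost under 4 other settings. The cause of these shifts was not tested. Scaling moved the median of all genes by under 0.1. The number of arrays and compressed dim signals limit small changes.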
